A study of Mus musculus with 62 samples.

Results

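The diet comparison within liver of male *Fam13a* knockout (KO) mice rested on the 8 libraries that the labels give as male, liver and KO, out of 62 libraries in the series: 4 from mice on a high-fat diet (HFD) and 4 from mice on chow. Every mouse of both groups carried the same KO, made from embryonic stem cells in which an exon of *Fam13a* was flanked by LoxP sites, on a C57BL6 background. The Cre line that removed the exon is not given in the sources used here, and the KO is described for the whole animal rather than for liver. HFD held 45% of its calories as fat and was fed from 8 weeks of age for 14 weeks, until the mice were killed at 22 weeks of age, and chow held 18% of its calories as fat. The study's methods give an overnight fast before death for the mice whose liver was fixed for histology, and do not say whether the livers used for RNA came from the same mice. The age of the chow mice used for liver RNA and the hour of tissue collection are not given in the sources used here. The study's chow mice used for histology were younger than its HFD mice at death. Whether the chow livers used for RNA came from mice of that age is not stated. A difference in age between the groups could not be told apart from diet, and its part was not tested. The labels do not say whether each library came from a separate mouse, so p-values measure the spread between these libraries. The 4 WT HFD and 4 WT chow liver libraries of the same series served for comparison.

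The liver takes up sugar and fat after a meal, makes glucose between meals, and turns surplus carbon into fatty acids, cholesterol and lipoproteins. Insulin raises the genes of glucose use and fatty acid synthesis there and lowers those of glucose production, while PPARα, a receptor for fatty acids, raises the genes of fatty acid oxidation during fasting. Hepatocytes also carry a circadian clock, in which BMAL1 and CLOCK raise the genes of their own repressors, and feeding times shift that clock.

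RNA was sequenced and the reads counted on genes. Between 4959783 and 28239755 reads were counted per KO library. Nuclear ribosomal RNA, counted on *CT010467.1*, took 45.9%, 4.97%, 3.44% and 30.5% of the chow libraries (replicates 1 to 4) and 0.0256%, 0.0345%, 75.4% and 0.0261% of the HFD libraries. That gene was set aside, after which 1219431 counts were left in HFD replicate 3 and 25627182 to 28232389 in the other HFD libraries, against 3741385 to 21372233 in the chow libraries. Values below are counts per 1000000 (CPM) of what was left, scaled by the TMM factors of edgeR, always in the order of replicates 1 to 4, and 1 count in HFD replicate 3 is worth more CPM than in any other library. The share of mitochondrial genes was 31.5% to 36.1% on chow and 31.8% to 33.6% on HFD. All KO chow libraries were sequenced on lane 3 and all KO HFD libraries on lane 6 of one flow cell. The WT chow libraries were also on lane 3, WT HFD replicate 1 was on lane 8 and the other WT HFD libraries were on lane 6. Diet and lane cannot be told apart in either genotype. The label liver matched its markers: *Alb*, serum albumin, was at 42364 ± 5875 transcripts per 1000000 on chow and 44045 ± 3885 on HFD (mean ± SD, n = 4 each), all 8 hepatocyte markers were measured, and markers of kidney had no gene tested.

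*Fam13a* (ENSMUSG00000037709, GRCm38 chr6:58932090-59024549, minus strand) was itself counted in all 8 KO libraries. It stood at 25.5, 25.3, 22.6 and 44.9 CPM on chow and 19.5, 13.3, 12.6 and 13.1 CPM on HFD. Every HFD library was below every chow library, and chow replicate 4 and HFD replicate 1 were the highest of their groups. The log2 fold change was -0.96 ± 0.21 (standard error; edgeR adjusted p = 0.00800; exact permutation test, two-sided, p = 0.0286, the smallest that 4 against 4 libraries can give), and the call was lost with the ribosomal RNA share as a covariate (-0.83, adjusted p = 0.321). In WT liver, counted in the same way over 16 libraries, the gene was at 45.8 ± 9.64 CPM on chow and 26.2 ± 3.58 CPM on HFD, beside 30.3 ± 10.5 and 14.99 ± 3.39 in KO (SD, n = 4 each). A count over the whole gene includes reads outside a deleted exon and so does not by itself test the KO, and *Gm45061* overlaps *Fam13a* on the other strand.

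Of 13457 genes tested, 2726 passed an FDR of 10% in edgeR's quasi-likelihood test with Benjamini-Hochberg adjustment (20.3% of genes tested): 1508 were higher on HFD (11.2%) and 1218 lower (9.05%). The split by direction moved with the scaling, to 1400 higher and 1408 lower with upper-quartile factors and to 1404 and 1314 with the ribosomal RNA gene kept. Among the 2726, 397 were at least 2-fold higher and 228 at least 2-fold lower, and 92 and 42 reached 4-fold. The CPM of the HFD and chow libraries did not overlap in 2553 genes (19.0% of genes tested), 1377 higher (10.2%) and 1176 lower (8.74%), and the median log2 fold change of all genes tested was -0.0019. In a fit of the 7468 genes with at least 10 counts in every library, 2343 passed, a larger share than the 20.3%. The 20.3% set beside the gene lists below thus includes many genes of low count. In bulk tissue, fewer cells of a type and less RNA per cell cannot be told apart. Without HFD replicate 1, higher calls fell to 1040 and lower calls to 786, and without HFD replicate 2 to 1040 and 792. With the ribosomal RNA share as a covariate 794 genes passed, 452 higher and 342 lower. The share, entered on a log2 scale, was under 0.04% in 3 HFD libraries, 75.4% in the other and above 3% in all chow libraries. Its mean on the linear scale was 18.9% on HFD and 21.2% on chow (exact permutation test, two-sided, p = 0.743). The library at 75.4% sets the HFD mean, so that test does not show a share balanced between diets. Among the genes named here, that fit ended the calls of *Asns*, *Cela1*, *Cfd*, *Chac1*, *Cidea*, *Cxcl1*, *Cyp17a1*, *Cyp1a2*, *Cyp2b13*, *Cyp7b1*, *Dcn*, *Elovl6*, *Fam13a*, *Ghr*, *Gpnmb*, *Hadha*, *Idi1*, *Irs2*, *Lect2*, *Lepr*, *Mmp14*, *Nfil3*, *Nipal1*, *Npas2*, *Pdk4*, *Per1*, *Plin2*, *Pltp*, *Ppara*, *Pparg*, *Psmb8*, *Psmb9*, *Rora*, *Slc22a27*, *Socs2*, *Sqle*, *Timd4* and *Il1a*. Leaving out the 3 libraries with over 30% ribosomal RNA gave 2451 calls, of which 1985 were among the 2726.

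**Figure D1:**
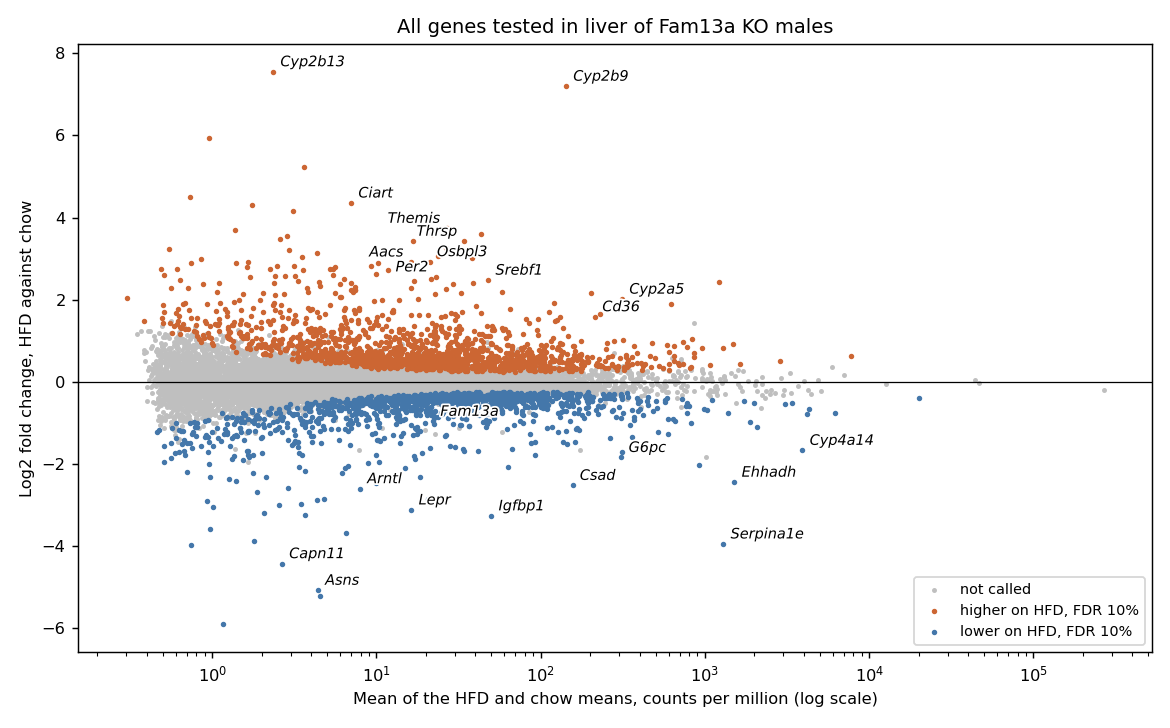
Log2 fold change (vertical axis) of each of the 13457 genes tested against its mean level in CPM (horizontal log axis), HFD against chow in KO liver. Orange points are the 1508 genes higher on HFD, blue points the 1218 lower and grey points those not called; *Cyp2b9* lies far above and *Serpina1e* far below most genes of their level.

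The 23 functional gene lists were chosen with earlier results of these data known, so their shares describe these data and test nothing. Of these lists, the circadian clock had the largest share called, 90.9% against 20.3% of all genes tested. In it 20 of 22 genes passed (14 with the ribosomal RNA share as a covariate), 15 higher and 5 lower. Its median log2 fold change was 1.15 against -0.0019 over all genes. The hour of collection is not given, nor the feeding state of the mice whose liver RNA was sequenced. A difference in either between the groups could not be told apart from diet in these genes. Among the repressors that the clock's activators turn on, *Per2* was at 5.74, 7.52, 7.34 and 4.50 CPM on chow and 31.1, 38.5, 45.8 and 42.9 CPM on HFD. The lowest HFD library was more than 4 times the highest chow library, and the log2 fold change was 2.56 ± 0.17 (edgeR adjusted p = 3.47e-06). *Per3*, another period gene, rose by 2.26 ± 0.23 on the log2 scale. *Ciart*, which represses the clock's activators, was at 0, 0.867, 0.892 and 0.141 CPM on chow and 8.20, 7.67, 11.1 and 27.3 CPM on HFD, with HFD replicate 4 well above the other libraries of its group. Its log2 fold change was 4.36 ± 0.55, and 3.62 without that library.

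Output genes of the clock were among those called higher. *Dbp*, a PAR bZIP transcription factor, was at 13.5, 14.2, 15.7 and 5.07 CPM on chow and 65.1, 65.1, 62.4 and 68.7 CPM on HFD. The HFD values lay close together and all were more than 3 times any chow value (log2 fold change 2.40 ± 0.22, edgeR adjusted p = 2.20e-05). Its relative *Tef* was at 87.2, 91.3, 88.3 and 51.7 CPM on chow and 193, 197, 180.0 and 211 CPM on HFD, a rise of 1.30 ± 0.15 on the log2 scale. *Usp2*, a rhythmically expressed ubiquitin protease, was at 4.02, 3.41, 2.46 and 1.41 CPM on chow and 21.8, 21.003, 36.3 and 43.5 CPM on HFD. It rose 10.8-fold, with no overlap (edgeR adjusted p = 1.40e-05). *Bhlhe41*, a repressor, rose by 2.75 ± 0.41 on the log2 scale.

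The genes called lower included the activators *Arntl* and *Clock*. *Arntl*, which encodes BMAL1, was at 13.5, 10.2, 10.8 and 21.4 CPM on chow and 2.26, 2.29, 0.790 and 2.29 CPM on HFD. All HFD libraries lay under 3 CPM and all chow libraries above 10 (log2 fold change -2.60 ± 0.25, edgeR adjusted p = 2.62e-05). *Clock*, its partner, was at 121, 127, 124 and 104 CPM on chow and 64.4, 63.4, 58.4 and 58.5 CPM on HFD, and fell 1.94-fold. *Nfil3*, a repressor that competes with *Dbp* and *Tef* for their sites, was at 25.8, 18.2, 13.6 and 24.8 CPM on chow and 8.64, 8.30, 6.32 and 7.22 CPM on HFD. Its groups did not overlap either (log2 fold change -1.32 ± 0.19). *Rora* (-0.41 ± 0.09) and *Npas2* (-1.48 ± 0.44), also activators, fell as well, *Npas2* not past the threshold without HFD replicate 2 (adjusted p = 0.139) or without the 3 libraries of high ribosomal RNA (0.192).

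Other members did not follow so clearly. *Nr1d1*, the repressor REV-ERBα, was at 33.9, 31.04, 35.3 and 30.7 CPM on chow and 40.1, 35.97, 37.1 and 26.4 CPM on HFD, and its groups overlapped (edgeR adjusted p = 0.752). *Per1* was at 2.58, 16.3, 7.87 and 5.07 CPM on chow and 16.3, 9.998, 26.8 and 31.3 CPM on HFD. It passed the test at an edgeR adjusted p of 0.0782, with overlapping groups, but not without chow replicate 1, 3 or 4 or HFD replicate 3 or 4 (adjusted p 0.135 to 0.293) and not by DESeq2 (adjusted p = 0.138), and its log2 fold change of 1.15 became 1.75 without chow replicate 2. *Rgs16*, a regulator of G protein signalling outside the list, was at 19.2, 7.57, 7.13 and 2.39 CPM on chow and 36.2, 17.8, 93.2 and 121 CPM on HFD, a log2 fold change of 3.01 ± 0.58 with overlapping groups (2.32 without HFD replicate 4). The median of the list in WT liver was 1.02, with 13 members higher and 4 lower, where 16.1% of all genes were called higher and 14.4% lower.

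**Figure D2:**
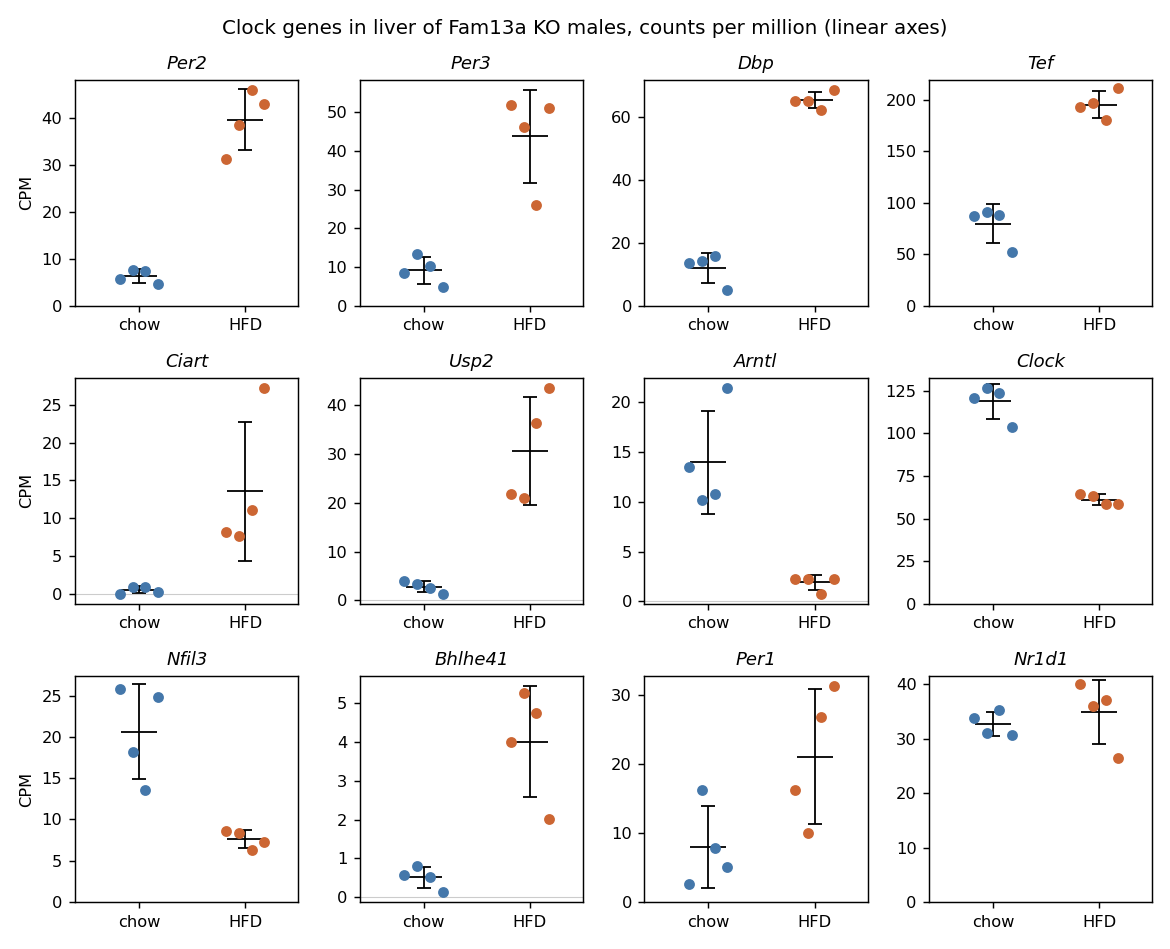
CPM (vertical linear axes, each including 0) of 12 clock genes in the 4 chow (blue) and 4 HFD (orange) KO libraries. Points are libraries in the order of replicates 1 to 4, and bars are the mean ± SD; *Per2*, *Per3*, *Dbp*, *Tef*, *Ciart*, *Usp2* and *Bhlhe41* were higher in every HFD library, *Arntl*, *Clock* and *Nfil3* lower in every HFD library, and *Per1* and *Nr1d1* overlapped.

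The promoters of clock genes were searched for letters that clock factors are known to read, and short stretches are shown for 6 genes above that hold a match. RefSeq sequences (GRCm38.p6) from 250 bases before to 50 bases after a start were found for 19 of the 22 genes and searched on both strands. The E-box CACGTG stood in 4 of the 12 genes higher on HFD and in 0 of the 5 lower, against 11.8% of the 9862 tested genes and 8.09% of all 27025 genes with such a sequence. The ROR element TAGGTCA stood in 0 of the 12 and in 2 of the 5, against 2.51% of tested and 2.97% of all genes. The D-box TTATGTAA was found in *Per3* alone of the 19, against 0.72% of tested and 1.11% of all genes. Of the 19, 5 held the E-box, 2 the ROR element and 1 the D-box, and the other genes, *Dbp*, *Clock* and *Usp2* among them, held none of these in the window. No matches overlapped each other in these promoters. The windows lie at chr3:95882326-95882355, minus strand (*Ciart*), chr15:81802535-81802564, plus (*Tef*), chr6:145865555-145865584, minus (*Bhlhe41*), chr4:151044852-151044881, minus (*Per3*), chr7:113207530-113207559, plus (*Arntl*), and chr13:52981033-52981062, minus (*Nfil3*), each written 5′ to 3′ with the motif in capitals. In *Nfil3* the element is on the other strand.
Ciart: gcatctagagtCACGTGttgccggtaagct
Tef: tgctgtggctcCACGTGctgcagctggcac
Bhlhe41: ggtacgttccgCACGTGagctgggtgctgg
Per3: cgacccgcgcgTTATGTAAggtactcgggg
Arntl: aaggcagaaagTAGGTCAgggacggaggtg
Nfil3: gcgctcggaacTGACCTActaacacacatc
*Ciart*, *Tef*, *Bhlhe41* and *Per3* were higher on HFD, and *Arntl* and *Nfil3* lower. A match of letters is a description and shows no binding.

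Of 27 genes of glucose production and insulin response tested, 6 were higher on HFD and 7 lower (median log2 fold change 0.06). That was 48.1% called, against 20.3% of all genes. *Slc2a2*, the glucose transporter of hepatocytes, rose 2.04-fold, from 227, 264, 208 and 133 to 407, 422, 405 and 458 CPM. *Pfkfb3*, which makes an activator of glycolysis, rose by 1.58 ± 0.28 on the log2 scale.

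Glucose release was represented by *G6pc*, the glucose-6-phosphatase subunit, at 378, 598, 433 and 534 CPM on chow and 206, 137, 96.3 and 95.6 CPM on HFD. All HFD libraries were lower, and the gene fell 3.59-fold (edgeR adjusted p = 0.000159). *Pck1*, which starts gluconeogenesis from oxaloacetate, was at 2303, 3171, 2954 and 2876 CPM on chow and 1092, 718, 1207 and 2202 CPM on HFD, a log2 fold change of -1.11 ± 0.26 with HFD replicate 4 near the chow level. Of the genes that insulin lowers, *Igfbp1*, a binding protein of insulin-like growth factors, was at 53.4, 71.97, 107 and 126 CPM on chow and 9.24, 3.26, 15.003 and 14.5 CPM on HFD. It fell 9.61-fold with no overlap (edgeR adjusted p = 0.000113), and the receptor substrate *Irs2* fell 3.02-fold, from 32.1, 34.9, 44.3 and 68.1 to 18.8, 16.9, 15.8 and 8.87 CPM. *Igfbp2* fell 2.23-fold and *Irs1* fell by 0.72 ± 0.12 on the log2 scale.

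Of 21 genes of fatty acid synthesis and desaturation, 6 were higher and 6 lower (57.1% called, against 20.3% of all genes, median 0.17). *Srebf1*, the transcription factor that insulin uses to raise lipogenic genes, was at 13.5, 18.1, 13.6 and 12.8 CPM on chow and 67.5, 105, 75.01 and 77.5 CPM on HFD. The lowest HFD value was more than 3 times the highest chow value, and the gene had the smallest p of those named (log2 fold change 2.48 ± 0.16, edgeR adjusted p = 3.47e-06). *Rai1* overlaps it on the other strand. *Thrsp*, a lipogenic regulator, was at 5.74, 7.69, 4.77 and 3.10 CPM on chow and 35.1, 49.3, 99.5 and 69.5 CPM on HFD, 10.7-fold higher without overlap. *Insig2*, which holds SREBP factors in the endoplasmic reticulum, fell 3.29-fold, from 385, 516, 638 and 369 to 149, 182, 142 and 106 CPM. The sugar enzymes *Pklr* (pyruvate kinase) and *Khk* (fructokinase) rose 2.17-fold and 1.92-fold. *Mlxipl*, the sugar-sensing factor ChREBP, rose by 0.48 ± 0.13, though not past the threshold without HFD replicate 2 (0.41, adjusted p = 0.107).

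Several enzymes of the list did not pass the test. *Fasn*, fatty acid synthase, was at 53.95, 70.9, 56.1 and 56.7 CPM on chow and 59.01, 75.3, 108 and 52.1 CPM on HFD, and *Acly*, ATP citrate lyase, at 72.6, 79.9, 65.4 and 77.1 and 76.7, 85.02, 72.6 and 72.3 CPM. In both genes the groups overlapped (log2 fold change 0.23 ± 0.18 and 0.06 ± 0.10; edgeR adjusted p = 0.444 and 0.738). *Scd1*, the main desaturase, was at 7725, 9828, 5301 and 3666 CPM on chow and 7488, 5864, 11306 and 5101 CPM on HFD (log2 fold change 0.17 ± 0.29), and the sign turned for *Fasn* and *Scd1* without the 3 libraries of high ribosomal RNA (-0.03 and -0.30). *Acacb*, the acetyl-CoA carboxylase that restrains oxidation, fell 2.13-fold, and the elongases *Elovl5* and *Elovl6* fell 1.94-fold and 1.53-fold. *Aacs*, which makes acetoacetyl-CoA from ketone bodies for lipid synthesis, was among the largest rises, from 2.30, 4.34, 4.30 and 1.69 to 15.2, 30.4, 41.8 and 29.1 CPM.

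Of 27 genes of fat uptake and storage tested, 10 were higher, 3 were lower and 14 did not pass (11.2% of all genes were higher), and the median was 0.18. With the ribosomal RNA share as a covariate 5 were called in place of 13. *Cd36*, a fatty acid transporter, was at 102, 169, 73.4 and 81.1 CPM on chow and 294, 331, 378 and 285 CPM on HFD. The groups were well apart (log2 fold change 1.59 ± 0.22, edgeR adjusted p = 0.000350). *Vldlr*, a lipoprotein receptor, rose 6.21-fold, from 4.30, 2.89, 1.21 and 3.52 to 14.9, 8.64, 22.1 and 22.4 CPM, and *Dgat2*, which completes triglyceride synthesis, rose 1.99-fold. *Pparg*, the adipogenic nuclear receptor, was at 7.17, 8.09, 6.66 and 4.79 CPM on chow and 12.9, 15.3, 11.8 and 11.4 CPM on HFD, a rise of 0.95 ± 0.17 on the log2 scale. The droplet proteins did not move as one. *Plin4* rose 3.58-fold, *Plin5* fell 1.76-fold and *Plin2*, the most general marker of droplets, fell 1.41-fold, from 644, 741, 759.7 and 536 to 492, 524, 499 and 393 CPM. *Cidea*, a droplet fusion protein of brown fat and of fatty liver, was at 0, 0.347, 0.210 and 0 CPM on chow and 4.49, 20.2, 2.37 and 1.41 CPM on HFD, with HFD replicate 2 far above the rest (log2 fold change 5.24 ± 0.99, 3.74 without that library and 5.87 without chow replicate 2). Its relative *Cidec* was at 8.90, 23.2, 42.9 and 19.7 and 14.2, 22.98, 26.8 and 8.87 CPM and overlapped (edgeR adjusted p = 0.299, and 0.0916 without the 3 libraries of high ribosomal RNA). Summed adipocyte markers were 1.89 to 3.12 CPM on chow and 4.19 to 14.2 CPM on HFD: *Cfd* passed (2.81 ± 0.57, and 4.74 without chow replicate 2), *Adrb3* did not, and *Adipoq*, *Plin1*, *Lep* and *Retn* had too few counts to be tested, and their part in these values was not tested.

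**Figure D3:**
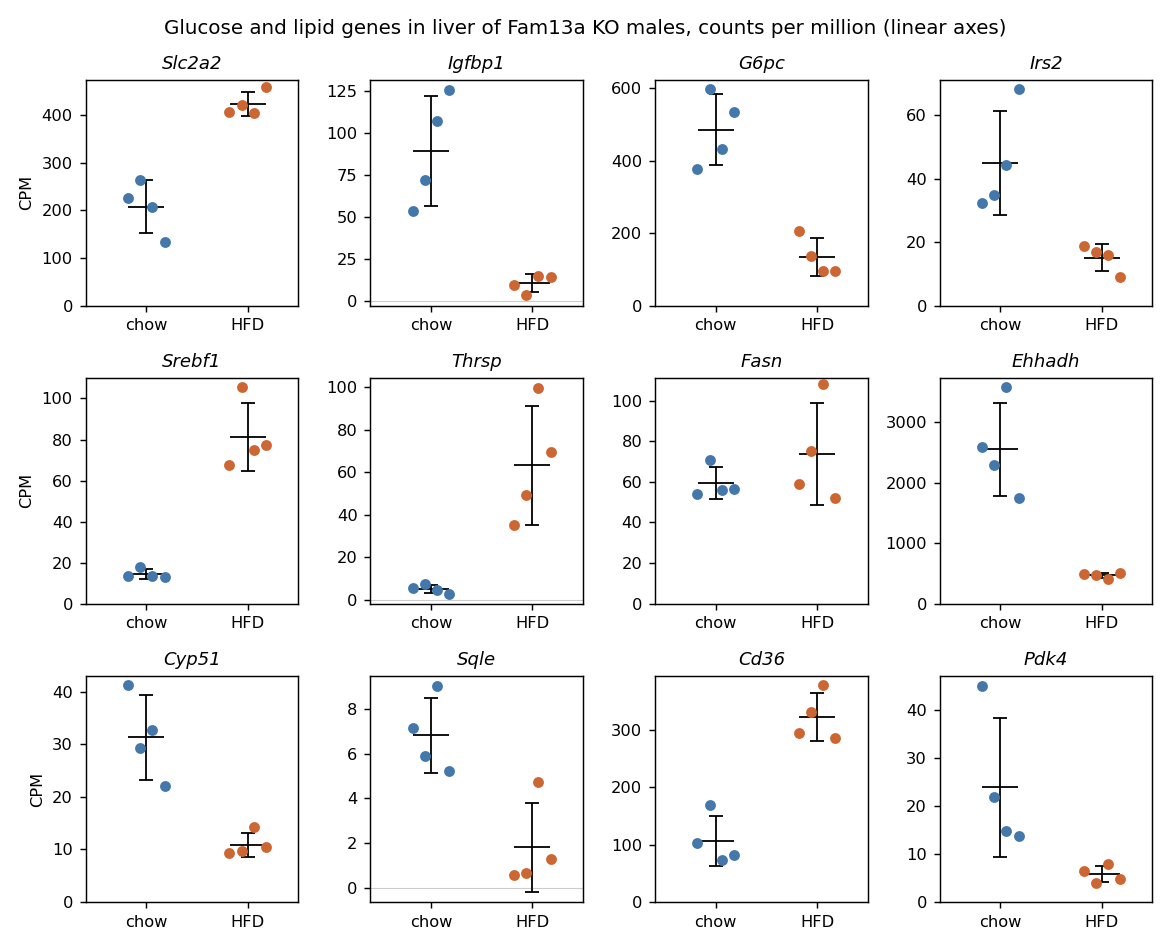
CPM (vertical linear axes, each including 0) of 12 genes of glucose and lipid metabolism in the 4 chow (blue) and 4 HFD (orange) KO libraries. Points are libraries in the order of replicates 1 to 4, with the mean ± SD as bars; *Slc2a2*, *Srebf1*, *Thrsp* and *Cd36* were higher in every HFD library, *Fasn* overlapped, and the other 7 genes were lower in every HFD library.

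Of 38 targets of PPARα and genes of fatty acid oxidation tested, 14 were lower on HFD, 2 were higher and 22 did not pass (9.05% of all genes were lower), with a median of -0.23. With the ribosomal RNA share as a covariate 8 were called in place of 16. *Ehhadh*, an enzyme of peroxisomal oxidation, was at 2594, 2292, 3577 and 1753 CPM on chow and 490.5, 468, 406 and 508 CPM on HFD. All HFD libraries lay within a narrow range, and the gene fell 5.45-fold (edgeR adjusted p = 8.80e-06). The ω-hydroxylase *Cyp4a14* was at 6280.3, 6145, 7170.5 and 4282 CPM on chow and 1909.8, 1543, 1765 and 2288 CPM on HFD, 3.18-fold lower. Its close relatives *Cyp4a10* and *Cyp4a31*, which can share reads with it, fell 1.99-fold and 3.70-fold.

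*Pdk4*, the kinase that closes off pyruvate oxidation in fasting, was at 45.1, 21.9, 14.7 and 13.8 CPM on chow and 6.42, 3.99, 7.90 and 4.82 CPM on HFD. *Fgf21*, a fasting hormone of the liver, was at 15.8, 9.08, 13.3 and 4.64 CPM on chow and 2.71, 1.49, 0.790 and 3.31 CPM on HFD. Neither overlapped, with log2 fold changes of -2.10 ± 0.33 and -2.10 ± 0.34 (edgeR adjusted p = 0.000877 and 0.00105). *Acot1*, an acyl-CoA thioesterase, fell 2.83-fold, and the trifunctional protein subunits *Hadha* and *Hadhb* were lower, with log2 fold changes of -0.47 and -0.60. The receptor did not go with its targets: *Ppara* was at 217, 230.0, 206 and 163 CPM on chow and 272, 270.2, 247 and 276 CPM on HFD, 1.31-fold higher, a call lost without HFD replicate 1 or 2 (adjusted p = 0.108 and 0.103). *Cpt1a*, the gate of mitochondrial oxidation, gave -0.21 ± 0.12 and did not pass.

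In cholesterol synthesis and uptake, 5 of 26 genes were lower and 2 higher, with a median of -0.10. The share called was 26.9%, not far from the 20.3% of all genes. *Cyp51*, the lanosterol demethylase, was at 41.3, 29.2, 32.7 and 21.96 CPM on chow and 9.24, 9.62, 14.2 and 10.5 CPM on HFD. It fell 3.06-fold without overlap (edgeR adjusted p = 5.09e-05), and *Akap9* overlaps it on the other strand. *Sqle*, squalene epoxidase, was at 7.17, 5.90, 9.02 and 5.21 CPM on chow and 0.556, 0.660, 4.74 and 1.27 CPM on HFD. HFD replicate 3, the shallowest library, was close to the chow libraries, and the other 3 were far below (log2 fold change -2.87 ± 0.38). *Idi1*, of the isoprenoid steps, fell by 1.68 ± 0.43 on the log2 scale with overlapping groups, and *Tm7sf2* and *Hsd17b7*, enzymes of later steps, fell 1.84-fold and 1.73-fold.

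*Srebf2*, the transcription factor of the pathway, was at 16.6, 16.6, 14.4 and 15.9 CPM on chow and 14.7, 12.9, 15.8 and 14.8 CPM on HFD and did not pass (edgeR adjusted p = 0.429). *Hmgcs1*, an enzyme of the first steps, gave -0.55 ± 0.21 (edgeR adjusted p = 0.103, and 0.0510 by DESeq2), and -0.76 without chow replicate 4 (adjusted p = 0.00162).

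Cholesterol leaves hepatocytes as bile acids, in bile and in lipoproteins. Of 28 bile acid genes, 6 were lower and 1 higher (25% called, not far from the 20.3% of all genes, median -0.05). *Cyp8b1*, which sets the share of cholic acid, was at 664, 618, 937 and 682 CPM on chow and 434, 372, 182 and 241 CPM on HFD, and fell 2.34-fold without overlap. *Cyp7b1*, of the alternative pathway, gave -1.11 ± 0.29 (edgeR adjusted p = 0.0193), a call lost without the 3 libraries of high ribosomal RNA (adjusted p = 0.163). *Cyp7a1*, the rate-limiting enzyme of bile acid synthesis, was at 358, 214, 323 and 276 CPM on chow and 313, 110.4, 115 and 263 CPM on HFD, and overlapped (adjusted p = 0.259, and 0.0795 without HFD replicate 1). *Akr1d1*, a reductase of the pathway, rose 2.16-fold, and the phospholipid pump *Abcb4* fell 1.55-fold.

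Of 28 genes of lipoproteins and cholesterol efflux, 8 were higher and 8 lower (57.1% called, against 20.3% of all genes, median 0.06). The transporters *Abcg5* and *Abcg8*, which together pump cholesterol into bile and lie head to head, were at 47.9, 49.7, 56.1 and 36.6 and 40.7, 50.4, 54.8 and 40.7 CPM on chow and at 81.5, 103, 82.1 and 76.5 and 79.9, 100.1, 91.6 and 74.2 CPM on HFD. They rose 1.80-fold and 1.82-fold without overlap (edgeR adjusted p = 0.000931 and 0.000578). *Saa4*, an apolipoprotein of high-density lipoprotein, rose 3.01-fold, from 66.9, 74.9, 65.4 and 52.9 to 159.6, 183, 212 and 232 CPM. *Mttp*, which loads triglyceride on apolipoprotein B, fell 1.76-fold, *Apoa5* 1.69-fold and *Pltp*, the phospholipid transfer protein, 2.05-fold.

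Genes that differ between the sexes in mouse liver, through the pattern of growth hormone, moved in both directions. Of 19 female-biased genes tested, 9 were higher and 3 lower (63.2% called, against 20.3% of all genes, median 0.61). With the ribosomal RNA share as a covariate 4 were called in all. The list held 10 more genes with too few counts to be tested. The summed level of the list went the other way, from 4569 to 7402 CPM on chow and from 1974 to 2953 CPM on HFD, and most of it was *Cyp4a14*, which was among the 3 lower. *Cyp2b9* was at 1.15, 5.03, 0 and 0.281 CPM on chow and 305, 211, 328 and 291 CPM on HFD. It had the largest rise of the protein-coding genes called with a mean of at least 10 CPM in the higher group, from near 0 in 3 of 4 chow libraries to over 200 CPM in all HFD libraries (log2 fold change 7.20 ± 0.61, edgeR adjusted p = 1.31e-05). The estimate was 10.33 without chow replicate 2 and 6.60 without chow replicate 3. Its neighbour *Cyp2b13* was listed at 0 in 3 chow libraries and at 0.0578 CPM in the other, and at 4.45, 3.16, 1.58 and 9.54 CPM on HFD. These paralogs can share reads, so the split between them is uncertain. *Slc22a27* rose by 3.54 ± 0.51 on the log2 scale (5.24 without chow replicate 2), while *Cyp17a1* fell 3.24-fold (adjusted p = 0.120 in the fit of all 16 liver libraries). *Nipal1* gave -2.47 ± 0.65, a call lost without the 3 libraries of high ribosomal RNA (adjusted p = 0.215), and -1.75 and -3.84 without replicate 4 of chow or of HFD.

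Of 33 male-biased genes, 11 were lower and 6 higher (51.5% called, against 20.3% of all genes, median -0.57). *Elovl3*, a fatty acid elongase, was at 185, 192, 119 and 83.2 CPM on chow and 43.3, 58.3, 19.7 and 35.5 CPM on HFD. *Cyp4a12a*, an ω-hydroxylase of male liver, was at 226, 223, 224 and 190.0 CPM on chow and 84.1, 123, 55.3 and 30.2 CPM on HFD. Both were lower in every HFD library, with log2 fold changes of -1.79 ± 0.27 and -1.53 ± 0.30 (edgeR adjusted p = 0.000681 and 0.00381). The complement gene *C8b* fell 2.34-fold, and *Socs2*, which growth hormone raises, fell by 1.79 ± 0.43 on the log2 scale (-1.14 without chow replicate 4, and adjusted p = 0.111 without the 3 libraries of high ribosomal RNA). *Cyp2u1* and *Ghr*, the growth hormone receptor, rose by 1.30 and 0.64. *Igf1*, the main target of growth hormone, was at 508, 444, 545 and 514 CPM on chow and 417, 426, 437 and 462 CPM on HFD (adjusted p = 0.228).

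Among 36 P450 genes of drug metabolism, 9 were higher and 3 lower (33.3% called, against 20.3% of all genes, median 0.20). *Cyp2a5*, coumarin hydroxylase, was at 139, 187, 74.999 and 96.8 CPM on chow and 458, 429, 449 and 670.0 CPM on HFD, and *Cyp2a22* at 4.02, 5.90, 1.57 and 1.69 and 45.7, 27.9, 41.8 and 46.4 CPM. Their log2 fold changes were 2.01 ± 0.24 and 3.59 ± 0.33 without overlap, the second 4.34 without chow replicate 2, and these near copies can share reads. *Cyp1a2* rose 1.81-fold, and *Cyp2e1* gave 0.35 ± 0.21 and did not pass. Of 32 genes of glutathione and of the oxidative stress factor NRF2, 15 were higher and 1 lower (median 0.29). That was 50% called, against 20.3% of all genes, and most of those higher were glutathione transferases. *Gstm2* was at 12.6, 16.2, 12.3 and 11.1 CPM on chow and 28.3, 34.6, 36.3 and 28.9 CPM on HFD, *Gsta4* rose 2.28-fold, and *Gsta1* was at 0.574, 0, 0.105 and 0.422 and 2.78, 4.10, 3.16 and 2.82 CPM (log2 fold change 4.31 ± 0.53, and 3.67 without chow replicate 2). *Gclc*, which limits glutathione synthesis and is a classical NRF2 target, was at 289, 283, 208 and 182 CPM on chow and 256, 284, 321 and 254 CPM on HFD, and overlapped.

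In amino acid breakdown and the urea cycle, 16 of 48 genes were higher and 12 lower (median 0.09). That was 58.3% called, against 20.3% of all genes. *Csad*, which makes the precursor of taurine, was at 343, 202, 267 and 259 CPM on chow and 45.3, 53.98, 31.6 and 48.6 CPM on HFD. It fell 5.75-fold, the smallest p among the named genes that fell (edgeR adjusted p = 3.56e-06), and *Zfp740* overlaps it on the other strand. *Kynu*, of tryptophan breakdown, fell 2.18-fold, and *Got1*, the cytosolic aspartate transaminase, fell 2.77-fold, from 131, 183, 298 and 343 to 91.9, 91.9, 77.4 and 82.6 CPM. The urea cycle genes *Cps1* and *Arg1* fell 1.73-fold and 1.51-fold. *Prodh*, which starts proline breakdown, was at 56.2, 84.1, 73.6 and 47.7 CPM on chow and 183, 186, 155 and 214 CPM on HFD, 2.81-fold higher, and *Aldh4a1*, a later enzyme of the pathway, rose 1.64-fold.

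Of 25 genes of methionine and one-carbon metabolism, 6 were higher and 6 lower (48% called, against 20.3% of all genes, median 0.05). Lower on HFD were *Mat1a*, which makes S-adenosylmethionine (1.70-fold), and the transsulfuration enzymes *Cbs* (1.73-fold) and *Cth* (2.08-fold). *Gamt*, the last enzyme of creatine synthesis, was at 19.8, 30.8, 16.7 and 14.8 CPM on chow and 69.6, 63.04, 55.3 and 74.9 CPM on HFD, and *Sardh*, sarcosine dehydrogenase, rose 1.86-fold. All 5 of these had groups that did not overlap (edgeR adjusted p up to 0.00448, for *Mat1a*).

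The stress lists had 6 of 33 genes higher and 6 lower for the unfolded protein and integrated stress response, and 1 of 20 each way for heat shock. The shares called were 36.4% and 10%, against 20.3% of all genes. *Asns*, asparagine synthetase, was at 2.01, 1.33, 7.19 and 23.9 CPM on chow and 0.223, 0.312, 0 and 0.211 CPM on HFD. Chow replicates 3 and 4 stood far above replicates 1 and 2, and HFD replicates 1, 2 and 4 were below 0.4 CPM (log2 fold change -5.08 ± 0.88, edgeR adjusted p = 0.00169, and -3.94 without chow replicate 4). The 0 of HFD replicate 3 allows up to 2.46 CPM before TMM, more than chow replicates 1 and 2 held. *Atf5* fell 2.41-fold, whereas *Atf3* and *Chac1*, targets of the same response, rose 4.47-fold and 5.31-fold. The chaperone *Hspa5*, the standard marker of unfolded protein stress, gave -0.34 ± 0.18 and did not pass. Among 29 secreted regulators, 7 were higher and 11 lower (62.1% called, median -0.20). *Lepr*, the leptin receptor, was at 13.8, 10.6, 34.3 and 59.1 CPM on chow and 3.15, 3.30, 2.37 and 3.87 CPM on HFD, 8.70-fold lower, and again chow replicates 3 and 4 were the highest. *Hamp*, the iron hormone hepcidin, was at 112, 79.3, 91.9 and 135 CPM on chow and 10.5, 31.9, 3.16 and 40.004 CPM on HFD, and *Lect2*, a hepatokine, rose 2.09-fold.

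Of 31 acute phase genes, 7 were higher and 6 lower (41.9% called, against 20.3% of all genes, median -0.03). *Orm2*, an orosomucoid, was at 4.02, 4.68, 4.77 and 3.94 CPM on chow and 12.9, 16.6, 13.4 and 9.30 CPM on HFD, 2.90-fold higher, a call lost in the fit of all 16 liver libraries (adjusted p = 0.337). *Saa2*, a serum amyloid, was at 9.18, 5.26, 12.6 and 7.04 CPM on chow and 18.2, 15.2, 35.5 and 14.4 CPM on HFD (log2 fold change 1.05 ± 0.28, edgeR adjusted p = 0.0216), a call lost without the 3 libraries of high ribosomal RNA (adjusted p = 0.122). Its neighbour *Saa1* gave 0.52 ± 0.28 (adjusted p = 0.247), and 1.02 without chow replicate 3 (adjusted p = 0.00649). *Serpina3k*, a protease inhibitor, fell 2.66-fold, from 7952, 6725, 11069 and 7125 to 2511, 4484, 2336 and 3027 CPM. Complement *C3* gave -0.23 ± 0.14 and did not pass.

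Of 36 interferon response genes, 11 were higher and 0 lower by edgeR (30.6% called, against 20.3% of all genes, median 0.28). *Ifi27l2b* was at 0.574, 3.06, 2.67 and 3.10 CPM on chow and 14.02, 12.8, 12.6 and 10.6 CPM on HFD, 4.70-fold higher. The immunoproteasome subunits *Psmb9* and *Psmb8* rose 2.14-fold and 1.60-fold. The inducible *Isg15* gave 0.66 ± 0.29 and did not pass. Inflammation and recruited macrophages had 4 of 27 genes higher and 5 lower, a share called of 33.3% against 20.3% over all genes. The chemokine *Cxcl1* rose 2.30-fold and the macrophage genes *Mmp12* and *Gpnmb* rose 3.50-fold and 3.74-fold, all at low levels (*Gpnmb* at 0, 0.116, 0.367 and 0.422 CPM on chow and 0.853, 0.937, 1.58 and 1.06 CPM on HFD), while *Lyz2*, lysozyme of myeloid cells, fell 1.47-fold. Extracellular matrix and stellate activation had 2 of 28 genes higher and 2 lower, a share under that of all genes: *Dcn* and *Mmp14* fell 1.44-fold and 1.57-fold. Cell division had 8 of 28 higher and 2 lower (35.7% called, against 20.3% of all genes, median 0.50). *Ccnd1*, cyclin D1, was 1.94-fold higher. *Mki67* gave 0.36 ± 0.32 and did not pass. Immediate early genes had 2 of 16 higher and 1 lower (18.8% called, near the 20.3% of all genes).

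**Figure D4:**
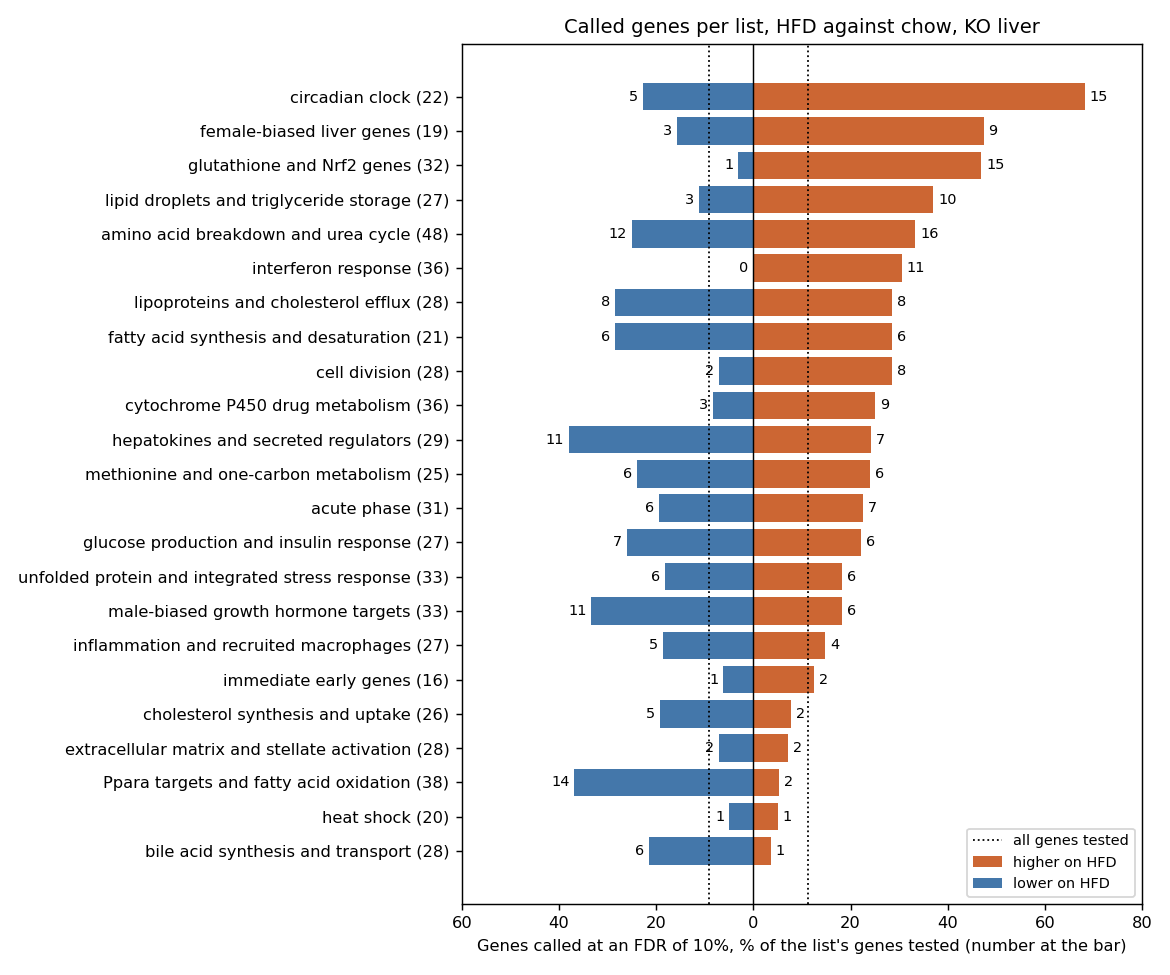
Share of each list's tested genes that were called higher (orange, to the right) or lower (blue, to the left) on HFD in KO liver, in % of the genes tested, whose number follows the list's name. Numbers at the bars are called genes, and dotted lines mark 11.2% and 9.05%, the shares over all genes tested; the circadian clock had 15 and 5 of its 22 genes called.

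Of 8 hepatocyte markers, 1 was higher on HFD and 2 were lower, *Cps1* among the lower (37.5% called, against 20.3% of all genes, median -0.13). Markers of other cell types moved with diet as well. Of 9 Kupffer cell markers, 4 were lower and 0 higher by edgeR (9.05% of all genes were lower, median -0.42). Their summed level was 249 to 346 CPM on chow and 185 to 263 CPM on HFD. *Clec4f* was at 91.3, 66.1, 79.6 and 74.6 CPM on chow and 67.2, 46.7, 33.95 and 48.8 CPM on HFD, and *Timd4* at 6.03, 6.30, 8.60 and 6.76 and 5.64, 3.51, 3.16 and 3.35 CPM. The call of *Clec4f* was lost without the 3 libraries of high ribosomal RNA (adjusted p = 0.138), and that of *Timd4* without chow replicate 3 (adjusted p = 0.103). Sinusoidal endothelium had 3 of 8 markers lower (summed 304 to 343 CPM on chow and 214 to 269 CPM on HFD), and stellate cells had 0 of 8 called (265 to 326 and 248 to 322 CPM). All 7 red blood cell genes were higher on HFD (11.2% of all genes were higher, median 0.65). Their sum was 271 to 363 CPM on chow and 435 to 568 CPM on HFD. Of the 7, 4 were called without the 3 libraries of high ribosomal RNA and 1 with the ribosomal RNA share as a covariate. Of T and NK cell, neutrophil, cholangiocyte, muscle and mesothelium markers, 0 were called by edgeR among the 1, 2, 3, 1 and 2 tested, 1 of 6 B cell markers was higher, and *Cela1*, the single pancreas marker tested, was higher by 0.71 ± 0.20 on the log2 scale, though not past the threshold without HFD replicate 4 (adjusted p = 0.154). The part of these cells in the values above was not tested.

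Outside the lists, the genes with the smallest p included several of lipid handling. *Osbpl3*, an oxysterol-binding protein, was at 5.45, 4.68, 2.94 and 7.88 CPM on chow and 40.1, 37.9, 37.1 and 32.8 CPM on HFD. The groups were far apart (log2 fold change 2.93 ± 0.21, edgeR adjusted p = 4.68e-06), and its relative *Osbpl5* rose 6.99-fold. *Acot11*, an acyl-CoA thioesterase, was at 2.30, 2.66, 2.31 and 2.11 CPM on chow and 15.9, 23.4, 18.95 and 13.8 CPM on HFD, 7.44-fold higher, with *Fam151a* on the other strand. *Enpp2*, autotaxin, which makes lysophosphatidic acid, rose 2.25-fold, *Slc5a6*, the vitamin transporter for biotin and pantothenate, 3.95-fold, and *Sult1c2*, a sulfotransferase, 4.73-fold.

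Of the lower genes, *Slc16a1*, the lactate and ketone body transporter MCT1, was at 153, 124, 150.4 and 114 CPM on chow and 52.9, 54.1, 45.8 and 41.5 CPM on HFD, 2.76-fold lower. *Clpx*, a mitochondrial chaperone, fell 2.77-fold, *Peg3*, an imprinted gene, 5.001-fold and *Tubb2a*, a tubulin, 3.33-fold. *Serpina1e*, an α1-antitrypsin gene, had the largest fall of the protein-coding genes called with a mean of at least 10 CPM in the higher group. It was at 2590.5, 1104, 2506 and 3539 CPM on chow and 161, 309.6, 54.5 and 91.4 CPM on HFD, a log2 fold change of -3.95 ± 0.47 (-4.54 without HFD replicate 2), and its reads can be shared with near-identical copies. *Themis*, a gene best known in T cells, was at 0.287, 7.40, 2.52 and 1.97 CPM on chow and 52.7, 56.9, 53.7 and 40.7 CPM on HFD (log2 fold change 3.74 ± 0.35, and 4.64 without chow replicate 2), while 9 of the 10 T and NK cell markers had too few counts to be tested.

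The same diets were compared in WT liver, where 4343 of 14238 genes tested passed (30.5%), 2294 higher and 2049 lower. Without ribosomal RNA, 8355832 to 28718933 counts were left in the WT libraries, against 1219431 to 28232389 in KO. Ribosomal RNA took 0.0127% to 18.2% of the WT chow libraries and 0.0245% to 3.43% of the WT HFD libraries. The part of depth and ribosomal RNA in the number of calls per genotype was not tested. Of the 2726 genes called in KO, 2714 were tested in WT, 2590 had the same sign there and 124 the opposite sign. Both comparisons called 1926 genes, 70.7% of the KO calls and 44.3% of the WT calls, and 1920 of these had the same sign. The 2 comparisons share no library. *Srebf1* gave 2.48 ± 0.16 in KO and 2.38 ± 0.21 in WT, *Igfbp1* -3.27 ± 0.39 and -3.16 ± 0.31, and *Per2* 2.56 ± 0.17 and 2.66 ± 0.30. That a gene passed in one genotype and not in the other does not show that they differ.

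The difference itself, tested as the diet by genotype interaction over 16 liver libraries, gave 0 of 14687 genes at an FDR of 10% by edgeR (0% called, smallest adjusted p = 0.216), with 963 genes at an unadjusted p under 0.05. DESeq2 called 24 and limma-voom 0, and leaving out 1 library gave 0 to 17 by edgeR, with 15 without WT chow replicate 2 and 17 without WT HFD replicate 2. The 10 genes with the smallest p included *Stard4*, *Sqle* and *Srebf2* of the cholesterol list. *Stard4*, a sterol carrier, was at 26.9 ± 4.19 and 27.7 ± 2.46 CPM on chow and HFD in KO and at 21.6 ± 5.03 and 53.96 ± 8.49 CPM in WT. It overlapped between diets in KO and did not in WT, and its interaction was -1.27 ± 0.22 on the log2 scale (edgeR adjusted p = 0.216). *Sqle* was at 6.99 ± 1.73 and 1.84 ± 2.01 CPM in KO and 6.16 ± 2.77 and 6.44 ± 2.75 CPM in WT, an interaction of -2.93 ± 0.58 (adjusted p = 0.249). *Srebf2* gave -0.80 ± 0.17, with the same adjusted p. *Cyp51*, just outside the 10, gave -1.66 ± 0.36. DESeq2 called *Stard4* and *Cyp51* among its 24. By edgeR, *Stard4* and *Sqle* were called when WT chow replicate 2 or WT HFD replicate 2 was left out. With any other single library left out, edgeR called none of these genes. Over the 26 genes of the cholesterol list, the median log2 fold change was -0.10 in KO, with 2 called higher and 5 lower, and 0.56 in WT, with 13 higher and 1 lower. Of all genes tested, 11.2% were called higher and 9.05% lower in KO, and 16.1% and 14.4% in WT.

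**Figure D5:**
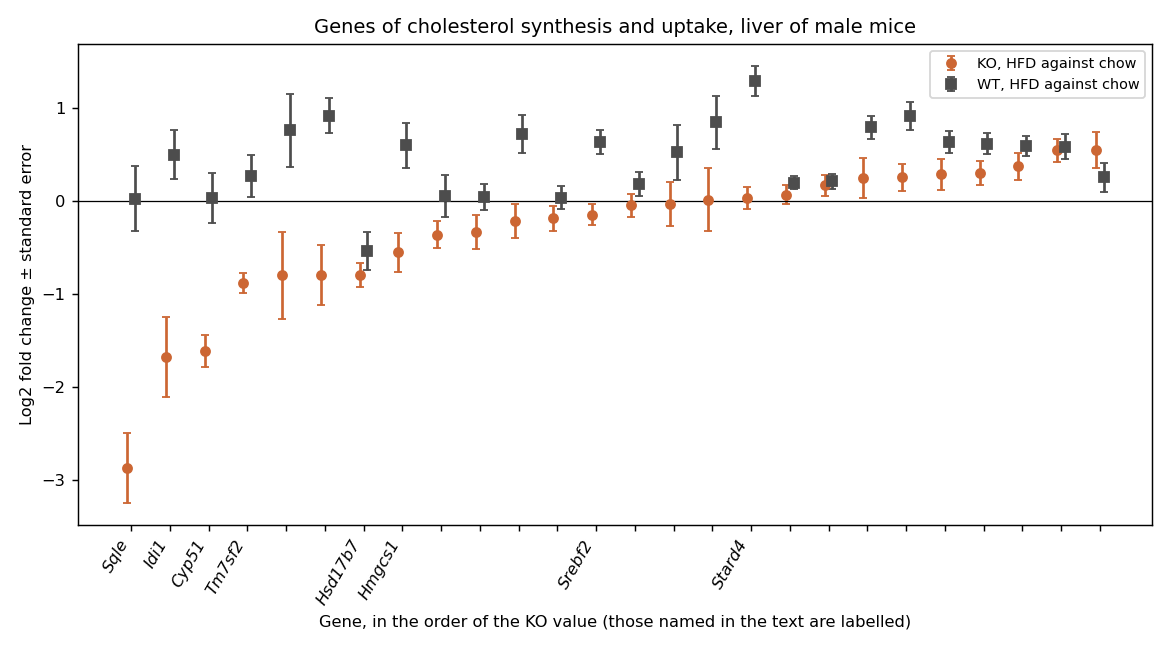
Log2 fold change, HFD against chow (vertical axis, ± standard error, 4 libraries a group), of the 26 genes of cholesterol synthesis and uptake in KO (orange circles) and WT (grey squares) liver, in the order of the KO value, with the genes named in the text labelled. Most WT values lie above 0; in KO, *Sqle*, *Idi1*, *Cyp51*, *Tm7sf2* and *Hsd17b7* were called lower and 2 genes higher, and 0 genes passed the test of the difference between genotypes by edgeR.

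Other genes among the 10 were *Slco1a4*, an organic anion transporter, *Il1a*, a cytokine, and *Ugt1a5*, a glucuronosyltransferase whose reads can be shared with its overlapping relatives. *Slco1a4* was at 181 ± 14.9 and 178 ± 56.4 CPM in KO and 268 ± 68.8 and 88.3 ± 16.2 CPM in WT (interaction 1.57 ± 0.30). *Il1a* was at 5.33 ± 0.991 and 2.78 ± 0.350 CPM in KO and 3.16 ± 0.824 and 4.40 ± 0.857 CPM in WT (-1.38 ± 0.28). *Saa2* had the largest estimate, 6.81 ± 1.47, on WT chow libraries that ranged from 14.6 to 2512 CPM, against 9.53 to 23.5 CPM on WT HFD. In the acute phase list as a whole, 18 of the genes tested fell and 2 rose in WT, beside 6 and 7 in KO, and the medians were -0.88 and -0.03. In the interferon list, 25 rose in WT and 11 in KO, 0 fell in either by edgeR, and the medians were 0.76 and 0.28. Over all genes tested, 16.1% were called higher and 14.4% lower in WT, beside 11.2% and 9.05% in KO. With 4 libraries a group, a missing call does not show that KO and WT responded alike.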

How the data were processed

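RNA was sequenced from frozen liver with the Illumina TruSeq Stranded protocol. The authors deposited 1 table of raw read counts per gene and library, made with STAR and not normalized. The submitters' processing notes name STAR 2.5.3a and mm10, the study's methods name a later release of STAR with a GENCODE annotation of GRCm38, and which strand's counts were kept is not stated in the sources used here. All columns of the table matched a library by name (0 unused columns).

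The nuclear ribosomal RNA gene CT010467.1 was removed before library sizes were summed. Genes were filtered with filterByExpr, scaled with TMM and tested with the quasi-likelihood test of edgeR 4.0.16 (limma 3.58.1, R 4.3.3) with diet as the single term. Benjamini-Hochberg adjustment ran over all genes tested, with the study's threshold of 10% FDR. The RNA quality values and hidden factors in the study's own model were not used here. WT liver was fitted alone in the same way, and the interaction over 16 liver libraries with 1 mean per group. CPM values are counts per 1000000 after that removal, on library sizes scaled by the TMM factors of each fit. Transcripts per 1000000 used the merged exon length of each gene. Depth limits precision most in HFD replicate 3, where 3 counts, the largest number that a count of 0 allows, equal 2.46 CPM before TMM, against 0.106 to 0.802 CPM in the other KO libraries. The scripts were tested on simulated data.

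Of 48795 gene identifiers, 48435 were found in GENCODE M21 (GRCm38), which gave names and positions.

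The members and gene lists were chosen with earlier results of these data known, and the lists are described by counts and medians, with no test over a list. The genes named were *Fam13a*, the 12 protein-coding genes with the smallest p in each direction whose groups did not overlap, the 10 with the largest fold change and at least 10 CPM in the higher group, core genes and up to 5 called genes of each list, and 10 genes of the interaction. *Acacb*, *Bhlhe41*, *C3*, *Clock*, *Cyp17a1*, *Ghr*, *Hadha*, *Hadhb*, *Irs1*, *Khk*, *Lect2*, *Lyz2*, *Nfil3*, *Npas2*, *Per3*, *Pfkfb3*, *Plin5*, *Rora*, *Slc2a2*, *Socs2* and *Tef* are outside that rule and were picked once their values were known. Some genes that the rule names are not reported here.

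The alternatives were other size factors, CT010467.1 kept, other count filters, DESeq2 1.42.0, limma-voom, robust quasi-likelihood, an FDR of 5%, all 16 liver libraries in 1 fit, the ribosomal RNA share as a covariate, mitochondrial genes removed, the mean in place of the median of a list, and each library left out. The fits without the 3 libraries of high ribosomal RNA, and without the genes *AY036118*, *Gm42418* and *Lars2*, were added after seeing the data.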

Additional observations from a re-analysis of the deposited data

Results flagged for a closer look

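In 29 of the 310 groups of 4 libraries examined (9.35%), 1 library stood far from the other 3, by a rule under which chance picks out about 1 in 20 groups. The depth measures were among them: HFD replicate 3 had 75.4% ribosomal RNA, against 0.0256% to 0.0345% in the other HFD libraries, and 1219431 counts after its removal, against 25627182 to 28232389.

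HFD replicate 3 was also the lowest of its group for *Arntl* at 0.790 CPM (others from 2.26 CPM), *Sardh* at 542 CPM (others from 808 CPM) and *Slc5a6* at 14.2 CPM (others from 18.1 CPM), and the highest for *Sqle* at 4.74 CPM (others up to 1.27 CPM) and *Sult1c2* at 15.003 CPM (others up to 11.9 CPM). The *Arntl* value lies below the 2.46 CPM that 3 counts equal in that library before TMM, so counting noise alone could set it apart. HFD replicate 4 was the highest for *Cyp2a5* at 670.0 CPM, *Dgat2* at 429 CPM and *Arg1* at 752 CPM, where the others reached 458, 357 and 607 CPM. HFD replicate 1 was the highest for *Fam13a* at 19.5 CPM, *Lyz2* at 36.7 CPM and *Timd4* at 5.64 CPM, where the others reached 13.3, 26.7 and 3.51 CPM. HFD replicate 2 was the highest for *Cidea* at 20.2 CPM, where the others reached 4.49 CPM.

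On chow, replicate 4 stood apart most often. It was the highest for *Fam13a* at 44.9 CPM (others up to 25.5 CPM), *Nipal1* at 37.9 CPM (others up to 12.9 CPM) and *Elovl6* at 41.9 CPM (others up to 37.1 CPM). It was the lowest for *Cyp2e1* at 2997 CPM and *Cyp4a12a* at 190.0 CPM, where the others began at 5826 and 223 CPM, and for *Acot1* at 62.6 CPM and *Tef* at 51.7 CPM, where they began at 148 and 87.2 CPM. Chow replicate 3 was the highest for *Cyp4a31* at 37.3 CPM and *Lyz2* at 54.9 CPM (others up to 25.3 and 39.8 CPM). Chow replicate 2 was the highest for *Srebf1* at 18.1 CPM and *Fasn* at 70.9 CPM (others up to 13.6 and 56.7 CPM), for *Cfd* at 1.85 CPM (others up to 0.315 CPM) and for *Cyp2b13* at 0.0578 CPM (the others listed at 0). That *Cyp2b13* value lies below the 0.168 CPM that 3 counts equal in that library before TMM. Chow replicate 1 was the lowest for *Cyp2u1* at 30.4 CPM and *Ifi27l2b* at 0.574 CPM, where the others began at 33.8 and 2.67 CPM.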

How the results depend on the processing

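The 2726 calls became 2243 to 3098 under the other size factors, filters, tests and sample sets run on all 8 KO libraries. At an FDR of 5% there were 1927, with 1127 higher and 800 lower. With the ribosomal RNA share as a covariate there were 794 (452 higher and 342 lower), 692 of them among the 2726, and 60 of the 2726 took the opposite sign. In that fit *Fam13a* gave -0.83 (adjusted p = 0.321), and *Mki67* (-0.58) and *Slco1a4* (0.15) changed sign. It called 14 clock genes in place of 20, 8 PPARα genes in place of 16, 6 interferon genes in place of 11 and 1 red blood cell gene in place of 7. Without the 3 libraries of high ribosomal RNA, 2451 genes passed, with 18 clock genes, and *Fasn* (-0.033) and *Scd1* (-0.30) changed sign. In the fit of all 16 liver libraries *Cyp17a1*, *Cyp7b1*, *Npas2*, *Orm2*, *Per1* and *Saa2* were not called (adjusted p 0.103 to 0.552), and with robust quasi-likelihood *Cyp7b1*, *Nipal1*, *Per1* and *Socs2* were not (0.111 to 0.266). The cause was not tested.

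Leaving out 1 library gave 1826 to 3048 calls, 1040 to 1579 higher and 786 to 1469 lower. *Fam13a* ranged from -1.17 to -0.69. In the same fits *Acly* ranged from -0.0016 to 0.11, *Nr1d1* from -0.024 to 0.20, *Scd1* from -0.11 to 0.42, *Slco1a4* from -0.15 to 0.17 and *Stard4* from -0.046 to 0.11, and none of these passed in the fit of all 8 libraries. Of 1216 such values over 152 genes, 1194 kept their direction and side of the threshold, 11 lost the call, 3 gained it and 8 changed sign. Of 2087 values under the other settings, the same counts were 2013, 59, 11 and 4.

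The interaction gave 0 calls by edgeR and 49 without a filter on low counts, 24 by DESeq2, and 0 to 17 when 1 of 16 libraries was left out. *Sqle*, *Stard4* and *Cyp51* were among the 49. Chow and HFD livers came from different mice, so no paired analysis was made. The labels carry no replicate numbers, and those used here follow accession order. Low genes are limited by HFD replicate 3, the shallowest library.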
